A study of Homo sapiens and Mus musculus with 69 samples.

Results

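The genes described here are 41 genes of the cell cycle, followed across small cell lung cancer (SCLC) lines in which Notch signaling was switched on by overexpression or by an LSD1 inhibitor. They were taken by name from a list drawn up with earlier results of these data known: MKI67 and TOP2A, the A, B and E type cyclins with CDK1, the CDC25 phosphatases, the licensing and helicase genes, the clamp and nucleotide supply genes, the mitotic kinases and checkpoint genes, the centromere and spindle genes, the anaphase-promoting complex genes CDC20 and UBE2C, and the transcription factors E2F1, E2F2, MYBL2 and FOXM1. By textbook function, 17 were placed with G1/S and 24 with G2/M. All 41 were listed among the 20516 genes of the human table and, under mouse symbols, among the 18501 genes of the KP1 table, and all 41 passed the filter on low values in every line.

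RNA sequencing covered 69 libraries in 23 groups of 3. H82, H524, H69 and COR-L88 are human SCLC lines, of which H82 and H524 are marked by NEUROD1. H82, H524 and H69 were profiled as parental cells and as cells carrying a doxycycline-inducible NOTCH1 intracellular domain, with or without doxycycline (dox). H82 NOTCH1 cells were also profiled with REST or STING knocked out (KO), each with and without dox, and H524 cells also with inducible REST, with and without dox. COR-L88 was treated with DMSO, with the LSD1 inhibitor TAS1440, or with TAS1440 plus a gamma-secretase inhibitor (GSI), and COR-L88 STING KO cells with DMSO or TAS1440. KP1, a mouse SCLC line with deletion of Rb1 and Trp53, was treated with DMSO, TAS1440, or TAS1440 plus GSI. By the study's methods TAS1440 was given at 100 nM for 28 days or longer, the GSI was BMS-708163 at 2 µM in COR-L88 and DBZ at 10 µM in KP1, dox was given at 1 µg/mL, and the overexpression samples were the adherent cells of cultures held in dox for 28 days or longer, so floating cells of those cultures were not profiled.

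A dividing cell copies its DNA in S phase and segregates it in mitosis. Genes for the first step are switched on late in G1 by E2F factors once cyclin and CDK activity has inactivated the RB proteins; genes for the second step peak in G2 and mitosis under MYBL2 and FOXM1 and are held down in resting cells by the DREAM complex. SCLC is known for loss of RB1 and for fast growth. In a bulk culture, fewer cycling cells and less RNA per cycling cell cannot be told apart.

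Promoters of 33 of the 41 genes were found in the RefSeq promoter table (GRCh38.p14, a window of 300 bases that starts upstream of the gene start and ends shortly after it). Sequence elements were searched on both strands: the cell cycle homology region (CHR, spelled TTTGAA or, in its variant form, TTCGAA), the CCAAT box, and an E2F element spelled TTTCCCGC, TTTCGCGC, TTTGGCGC or TTTGCCGC. A CHR match was held by 13 of 19 G2/M promoters (68.4%) and 2 of 14 G1/S promoters (14.3%), against 16.6% of all 27305 promoters. An E2F match was held by 10 of 14 G1/S promoters (71.4%) and 2 of 19 G2/M promoters (10.5%), against 3.33% of all. CCAAT was held by 16 G2/M promoters (84.2%) and 9 G1/S promoters (64.3%), against 35.7% of all. These letter matches are a description of the windows and not evidence of binding.

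Promoters of 3 G2/M genes and 3 G1/S genes whose values recur below are printed 5′ to 3′ on the strand of the gene, with CHR, CCAAT and E2F matches on either strand in capitals (TTCAAA and ATTGG are CHR and CCAAT on the other strand). The E2F matches of MCM2 overlap. The 3 G2/M windows hold CHR and CCAAT matches and no E2F match, and the 3 G1/S windows hold E2F matches and no CHR match. They are examples and not all members share this layout: AURKB, CCNA2, CCNB1, KIF20A, CENPE and CDC25C hold no CHR match, CDK1 and CENPA hold an E2F match, and the G1/S genes MCM6 and RRM1 hold a CHR match. PLK1, a mitotic kinase, lies at chr16:23678639-23678938 (plus strand), CDC20, the activator of the anaphase-promoting complex, at chr1:43358731-43359030 (plus strand), and TOP2A, the topoisomerase that untangles chromosomes, at chr17:40417847-40418146 (minus strand). E2F1 lies at chr20:33686336-33686635 (minus strand), MCM2, a subunit of the replicative helicase, at chr3:127598161-127598460 (plus strand), and PCNA, the sliding clamp of DNA polymerases, at chr20:5126573-5126872 (minus strand).
PLK1: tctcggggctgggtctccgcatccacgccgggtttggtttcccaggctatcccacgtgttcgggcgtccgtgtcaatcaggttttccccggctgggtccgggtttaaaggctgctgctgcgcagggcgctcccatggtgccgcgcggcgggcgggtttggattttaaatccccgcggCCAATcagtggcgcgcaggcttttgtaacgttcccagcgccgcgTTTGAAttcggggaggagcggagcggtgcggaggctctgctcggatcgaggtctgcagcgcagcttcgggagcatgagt
CDC20: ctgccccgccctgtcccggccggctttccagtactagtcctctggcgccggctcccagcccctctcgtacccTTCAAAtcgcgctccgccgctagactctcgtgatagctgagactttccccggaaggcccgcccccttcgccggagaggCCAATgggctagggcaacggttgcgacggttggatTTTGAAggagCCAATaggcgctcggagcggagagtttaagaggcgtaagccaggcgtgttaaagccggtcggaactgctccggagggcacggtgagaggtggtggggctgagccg
TOP2A: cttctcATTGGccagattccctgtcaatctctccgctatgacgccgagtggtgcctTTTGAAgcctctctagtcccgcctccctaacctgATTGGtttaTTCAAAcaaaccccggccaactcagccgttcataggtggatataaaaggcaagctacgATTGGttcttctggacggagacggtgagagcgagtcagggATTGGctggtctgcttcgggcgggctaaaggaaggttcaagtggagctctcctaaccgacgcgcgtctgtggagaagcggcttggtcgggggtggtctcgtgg
E2F1: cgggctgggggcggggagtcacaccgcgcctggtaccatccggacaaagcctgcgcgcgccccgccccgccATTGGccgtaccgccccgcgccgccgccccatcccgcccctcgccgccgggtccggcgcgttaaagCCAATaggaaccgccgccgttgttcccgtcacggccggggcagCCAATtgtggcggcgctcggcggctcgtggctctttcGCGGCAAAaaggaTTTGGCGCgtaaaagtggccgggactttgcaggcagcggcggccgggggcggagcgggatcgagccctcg
MCM2: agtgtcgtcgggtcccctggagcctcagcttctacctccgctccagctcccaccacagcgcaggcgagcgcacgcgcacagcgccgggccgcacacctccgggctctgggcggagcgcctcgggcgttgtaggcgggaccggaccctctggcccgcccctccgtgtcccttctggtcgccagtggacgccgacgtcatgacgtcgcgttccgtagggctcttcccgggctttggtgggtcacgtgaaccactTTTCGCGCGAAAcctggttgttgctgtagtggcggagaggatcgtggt
PCNA: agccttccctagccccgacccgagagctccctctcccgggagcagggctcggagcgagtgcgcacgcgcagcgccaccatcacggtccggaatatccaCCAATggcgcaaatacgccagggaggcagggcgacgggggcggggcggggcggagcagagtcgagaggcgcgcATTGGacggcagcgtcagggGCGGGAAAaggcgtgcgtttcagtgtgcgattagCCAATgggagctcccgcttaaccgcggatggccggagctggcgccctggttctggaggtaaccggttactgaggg

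Values are log2(RPKM + 1) as scaled by the authors, and a difference is a difference of group means on that scale, which understates changes of low genes. Libraries differed in relative depth by the values of single reads, from 0.700 to 1.53 times the median in the human table and from 0.871 to 1.07 times in KP1. Levels are compared only within a gene, since the gene length behind each value is not given in the sources used here. Markers of leukocytes and endothelium stayed at or below 1.18. NOTCH1 was higher with dox in every library of every NOTCH1 line, at 4.26 to 10.74 against 0.38 to 2.15 without dox. REST mRNA was still present in the libraries labelled REST KO (3.99 to 5.89), and STING mRNA (TMEM173) in the induced libraries labelled STING KO of H82 (1.27 to 2.04) was not below the intact ones (1.07 to 1.17), so mRNA does not check these labels. Within a group, 9 of 23 groups held at least 1 library whose mean over the 24 G2/M genes lay more than 0.5 from both others. These were H82 parental library 1, H82 NOTCH1 dox library 8, H82 REST KO dox library 33, H82 STING KO dox library 58, all 3 libraries of H524 NOTCH1 no dox (4.16, 4.69 and 5.43 in libraries 22, 23 and 24), COR-L88 STING KO DMSO library 41, and KP1 libraries 3, 4 and 9. Nothing in the labels says that the 3 libraries of a group came from separate cultures, so p-values measure the spread between these libraries, which may be technical.

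**Figure D1:**
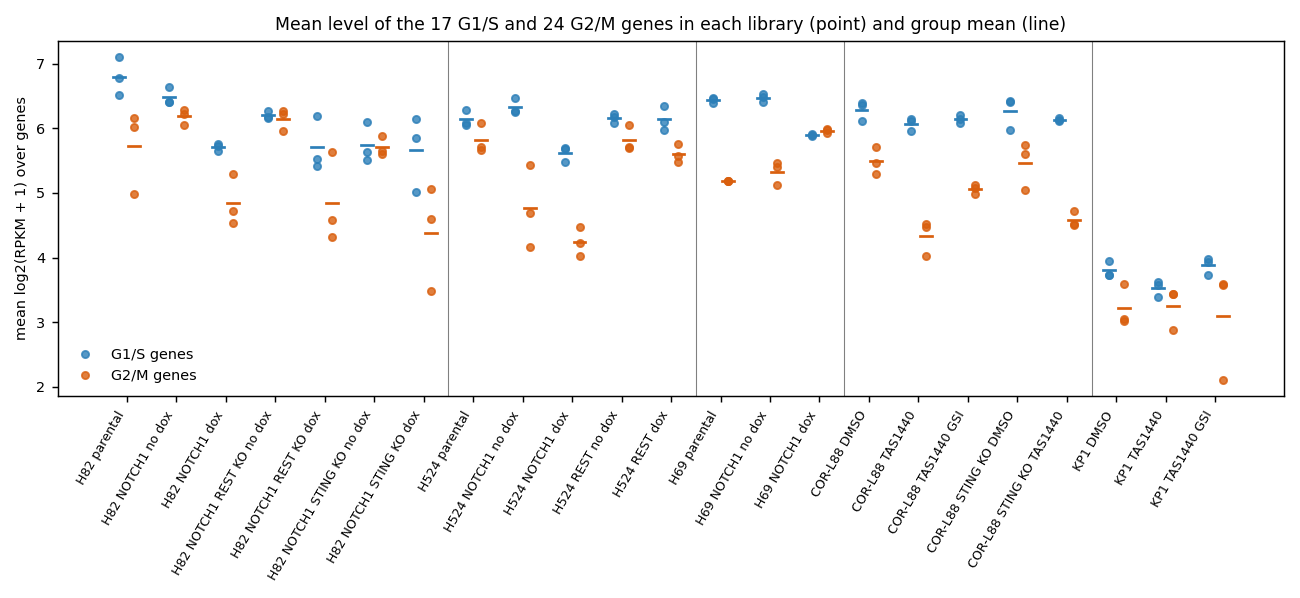
Mean log2(RPKM + 1) over the 17 G1/S genes (blue) and the 24 G2/M genes (orange) in each library (points) with the group mean (lines), for all 23 groups. The G2/M mean was lower with dox in H82 and higher in H69, and single libraries such as KP1 TAS1440 GSI library 9 (2.10) stood far from their group.

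In H82, NOTCH1 induction was followed by lower expression of genes from both arms of the cycle. Of the 41 genes, 29 fell and 0 rose (limma, adjusted p under 0.05), against 24.9% of all 13903 genes tested that fell and 25.4% that rose. The median difference was -1.19, beside -0.0026 over all genes. By phase, 18 of 24 G2/M genes and 11 of 17 G1/S genes fell.

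The 3 largest falls were those of AURKB, UBE2C and PLK1. AURKB, the kinase of the chromosomal passenger complex, was at 10.58, 11.47 and 10.52 with dox and at 13.02, 13.75 and 13.84 without, a difference of -2.68 ± 0.48 (SE, adjusted p = 0.000141). UBE2C, the ubiquitin-conjugating enzyme of the anaphase-promoting complex, was at 3.84, 4.26 and 3.66 against 6.01, 6.11 and 6.06, a difference of -2.14 ± 0.39 (SE, adjusted p = 0.000193). PLK1 was at 5.40, 6.06 and 5.29 against 7.54, 7.68 and 7.63, a difference of -2.03 ± 0.44 (SE, adjusted p = 0.000871). For all 3 genes each induced library lay below each uninduced one, and library 8 was the highest of the induced libraries. AURKA (-1.90), which drives spindle assembly, fell too, as did the checkpoint genes MAD2L1 (-1.49) and BUB1B (-1.45) and the passenger complex subunit BIRC5 (-1.37). BUB1 (-0.89) did not pass the test.

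MKI67, the antigen of cycling cells known as Ki-67, was at 6.48, 5.31 and 5.87 with dox and 7.77, 7.43 and 7.77 without, a difference of -1.77 ± 0.57 (SE, adjusted p = 0.0157). TOP2A was at 6.10, 6.79 and 5.95 against 7.17, 8.17 and 8.04, a difference of -1.52 ± 0.42 (SE, adjusted p = 0.00625). Neither gene had overlapping groups, but without library 8 the fall of MKI67 was 1.48 with an adjusted p = 0.0693. CCNB1, the cyclin that brings CDK1 into mitosis, was at 5.35, 7.04 and 5.36 against 6.60, 6.22 and 6.41, a difference of -0.50 ± 0.44 (SE, adjusted p = 0.359). Library 8 was the highest of these 6 libraries for CCNB1 and the other induced libraries the lowest, and without library 8 the difference was -1.06 (adjusted p = 0.0384). Among its partners CCNB2 (-1.50), CCNA2 (-1.45) and CDK1 (-1.18) fell.

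Centromere and spindle genes were split. KIF20A (-1.32), TPX2 (-1.20), KIF11 (-1.19) and CENPA (-1.18), the centromeric histone, fell, whereas CENPF (-0.95), CENPE (-0.70) and KIF23 (-0.03) did not pass. CDC20 fell by 1.51, and the mitotic phosphatase CDC25C (-0.63) did not pass.

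Among the G1/S genes, E2F1 was at 10.83, 10.19 and 10.72 with dox and 11.75, 11.69 and 11.98 without, a difference of -1.22 ± 0.24 (SE, adjusted p = 0.00045). MCM2 was at 5.76, 5.08 and 5.64 against 6.05, 6.63 and 6.39, a difference of -0.86 ± 0.23 (SE, adjusted p = 0.00488). Neither gene's groups overlapped. PCNA was at 6.85, 8.14 and 7.04 against 7.85, 7.10 and 7.24, a difference of -0.05 ± 0.36 (SE, adjusted p = 0.915), and library 8 again was the highest of the 6. All 4 transcription factors fell, with E2F2 at -1.40, MYBL2 at -1.54 and FOXM1 at -1.52. CDC25A (-1.88), which releases CDK2 from inhibition, and both ribonucleotide reductase genes, RRM2 (-1.66) and RRM1 (-1.06), fell with the thymidylate synthase gene TYMS (-1.00). Of the other helicase genes MCM7 (-1.15), MCM6 (-0.60) and MCM4 (-0.56) fell, and MCM5 (-0.44), MCM3 (0.06) and the loading factor CDC6 (-0.62) did not pass. The E cyclins did not fall, with CCNE1 at -0.04 and CCNE2 at 0.87, both short of the threshold.

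In cells labelled REST KO, mitotic genes again fell and both E cyclins rose. With dox, 26 of the 41 genes fell and 2 rose, against 26.2% and 26.0% of all genes, with a median of -0.93. Library 33 held higher mitotic levels than libraries 31 and 32 of that group. AURKB was at 10.44, 11.03 and 12.15 with dox against 13.79, 13.75 and 13.26 without, a difference of -2.40 ± 0.48 (SE, adjusted p = 0.000385). TOP2A was at 5.54, 5.64 and 6.39 against 7.90, 8.00 and 7.58, a difference of -1.97 ± 0.42 (SE, adjusted p = 0.000806). PLK1 was at 4.67, 4.96 and 6.47 against 7.43, 7.37 and 7.12, a difference of -1.94 ± 0.44 (SE, adjusted p = 0.00123). Even library 33 lay below all uninduced libraries for these 3 genes. The risers were both E cyclins, which activate CDK2 at entry to S phase. CCNE2 was at 3.36, 3.34 and 4.35 against 2.52, 2.28 and 2.49, a difference of 1.25 ± 0.40 (SE, adjusted p = 0.0137), and CCNE1 was at 2.96, 2.73 and 3.18 against 2.16, 2.24 and 2.58, a difference of 0.63 ± 0.23 (SE, adjusted p = 0.0271). For both cyclins the groups did not overlap. The count of called genes ran from 13 without library 31 to 30 without library 33, and it was 18 without library 28, 29 or 32.

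Compared with intact cells under dox, 0 of the 41 genes were called in REST KO cells (limma), with 1 at an unadjusted p under 0.05, against 38.4% of all genes, and 1 gene was called without library 7 or 33. Members were more scattered than all genes, with a median SD of 0.579 against 0.209 in REST KO and 0.346 against 0.256 in intact cells. Their differences ran from -0.86 to 0.96, so the lack of calls does not show equal levels. The test of the difference between both dox responses called 0 of 41 as well, with 0 at an unadjusted p under 0.05, against 16.6% of all genes. The induced NOTCH1 level was not matched between these groups, at 8.75 to 10.74 in REST KO and 4.26 to 5.56 in intact cells, and its part in the comparison was not tested. Without dox, MCM4 was lower in REST KO cells and no other gene was called, against 8.32% of genes lower and 6.92% higher. MCM4 was at 8.69, 8.72 and 8.76 against 9.41, 9.40 and 9.34, a difference of -0.66 ± 0.20 (SE, adjusted p = 0.0296), and leaving out any of these 6 libraries left 0 calls. With only these groups in the model the count was 5.

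In cells labelled STING KO, the genes that fell with dox were all G2/M genes. Of 24 G2/M genes 19 fell, and of 17 G1/S genes 0 changed, also at an unadjusted p under 0.05. The median over the 41 was -1.04, and the background was 16.9% of all genes lower and 20.8% higher. PLK1 was at 3.66, 5.06 and 4.64 with dox against 6.29, 6.48 and 6.95 without, a difference of -2.12 ± 0.44 (SE, adjusted p = 0.000882). AURKB was at 9.97, 11.88 and 11.26 against 13.12, 13.08 and 13.22, a difference of -2.11 ± 0.48 (SE, adjusted p = 0.00182). CCNB2, the second B type cyclin, was at 3.21, 4.61 and 4.13 against 5.62, 5.75 and 5.93, a difference of -1.78 ± 0.37 (SE, adjusted p = 0.00087). The groups were separate for all 3 genes, and library 58 was the lowest each time. MCM2, in contrast, was at 4.98, 5.56 and 5.32 against 4.96, 4.83 and 5.36, a difference of 0.23 ± 0.23 (SE, adjusted p = 0.452), and the groups overlapped. Without library 58 the count was 6, all of them G2/M genes (PLK1, AURKB, CCNB2, AURKA, UBE2C and BIRC5).

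Without dox, 7 of the 41 genes were lower in STING KO than in intact cells and 0 higher, against 21.6% and 13.0% of all genes, so the share of members called was not above that of all genes. Of the 7, 6 belong to G1/S, and the other 11 G1/S genes were not called. CDC25A was at 2.25, 2.04 and 2.80 against 4.36, 4.27 and 4.14, a difference of -1.89 ± 0.35 (SE, adjusted p = 0.000461). MCM6 was at 5.14, 5.29 and 5.55 against 6.46, 7.00 and 7.00, a difference of -1.49 ± 0.19 (SE, adjusted p = 1.99e-05). MCM2 was at 4.96, 4.83 and 5.36 against 6.05, 6.63 and 6.39, a difference of -1.30 ± 0.23 (SE, adjusted p = 0.000373). No library of one group reached the other for these 3 genes, and BUB1, MCM4, MCM7 and MCM5 were lower as well. With only these groups in the model the count was 20. Under dox, E2F1 was higher in STING KO cells, at 10.95, 11.95 and 11.65 against 10.83, 10.19 and 10.72, a difference of 0.93 ± 0.24 (SE, adjusted p = 0.00596), and BUB1, CCNB1, PLK1, CCNB2 and MCM6 were lower. BUB1, which anchors the spindle checkpoint, was at 2.44, 4.24 and 3.74 against 4.70, 5.50 and 4.48, a difference of -1.42 ± 0.40 (SE, adjusted p = 0.0099). Library 58 was the lowest of the 6 for BUB1, and the groups were separate. CCNB1 showed a difference of -1.34 ± 0.44 (SE, adjusted p = 0.022) and PLK1 a difference of -1.13 ± 0.44 (SE, adjusted p = 0.0489). The background here was 16.0% of genes higher and 23.2% lower, so members were called less often than all genes in both directions. In the induced STING KO group the median SD was 0.719 over members and 0.201 over all genes. Over the G2/M genes the median difference was -0.58, with 18 of 24 lower by any size, beside -0.096 over all genes. Fewer calls thus do not show smaller differences. The 6 calls under dox became 2 without library 8, 11 without library 59, and 1 with only the compared groups in the model. The difference between both dox responses was called for MCM2 alone (1.09 ± 0.33, adjusted p = 0.0431), against 5.01% of genes with a higher and 4.26% with a lower response. That call was lost under quantile normalization (0.95, adjusted p = 0.0707) and with only the compared groups in the model (adjusted p = 0.0832), where CDC25A (adjusted p = 0.0263) was called instead.

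Uninduced NOTCH1 cells and parental H82 differed in 3 genes, against 7.56% of all genes higher and 6.13% lower. Neither share of members was above that of all genes. PLK1 was at 7.54, 7.68 and 7.63 against 5.17, 6.73 and 6.37, a difference of 1.52 ± 0.44 (SE, adjusted p = 0.027). CCNE2 was at 3.88, 2.17 and 2.51 against 4.73, 3.86 and 4.09, a difference of -1.37 ± 0.40 (SE, adjusted p = 0.029), and CCNE1 was at 3.10, 2.34 and 2.59 against 3.71, 3.06 and 3.74, a difference of -0.83 ± 0.23 (SE, adjusted p = 0.021). Both cyclins overlapped between groups. Parental library 1 stood apart, with MKI67 at 5.27 against 7.52 and 7.86 in its group, and without it, or without library 5 or 6, the count was 0. It was 1 without library 3, 5 without library 2, and 0 with only the compared groups in the model.

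**Figure D2:**
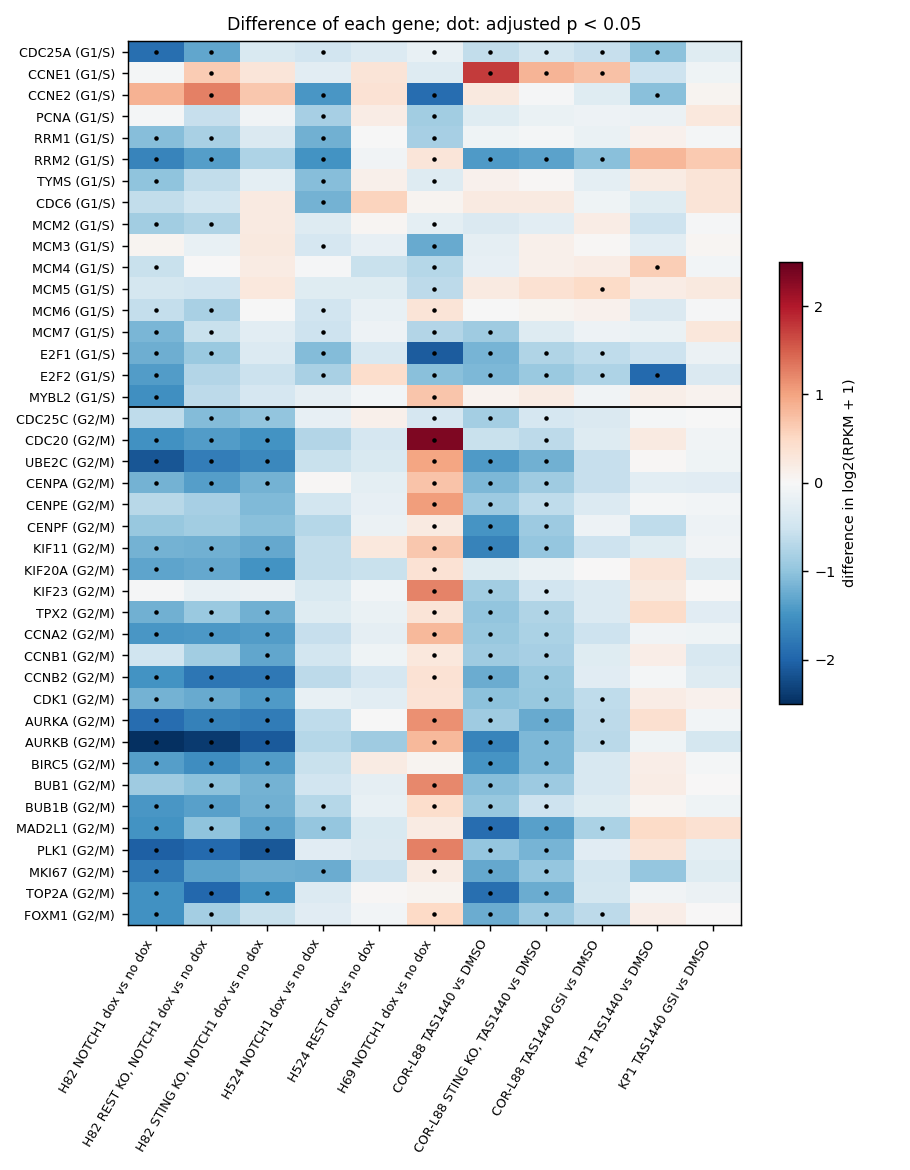
Difference in log2(RPKM + 1) of each of the 41 genes (rows, human symbols, G1/S above the line and G2/M below) in 11 treatment comparisons (columns), with dots for an adjusted p under 0.05. The H82 NOTCH1 column has 29 dots, all on blue cells (lower), and the H524 REST column has 0. The cells of the H69 column are mainly red (higher) below the line and mainly blue above it.

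In H524, most of the genes called lower with NOTCH1 induction belong to G1/S, but the median fall was similar in both phases. In all, 15 genes fell and 0 rose, against 14.4% and 17.9% of 13648 genes. They included 12 of 17 G1/S genes and 3 of 24 G2/M genes, and the median over the 41 was -0.55. By phase the median was -0.52 over the G1/S genes and -0.55 over the G2/M genes. Counting any size of difference, 23 of the 24 G2/M genes were lower, so the split in calls is not a split in size. RRM2, the regulated subunit of ribonucleotide reductase, was at 4.15, 4.66 and 4.63 with dox and 5.80, 5.70 and 6.45 without, a difference of -1.50 ± 0.26 (SE, adjusted p = 0.000468). CCNE2 was at 3.21, 3.00 and 3.16 against 4.85, 4.83 and 4.05, a difference of -1.46 ± 0.40 (SE, adjusted p = 0.0132). MKI67 was at 5.25, 5.32 and 5.68 against 6.18, 6.57 and 7.21, a difference of -1.24 ± 0.23 (SE, adjusted p = 0.00106). The groups did not overlap for any of these genes.

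E2F1 was at 11.60, 11.81 and 11.73 against 12.51, 13.10 and 12.78, a difference of -1.09 ± 0.17 (SE, adjusted p = 0.000221), and PCNA was at 6.62, 6.69 and 6.74 against 7.40, 7.37 and 7.78, a difference of -0.84 ± 0.16 (SE, adjusted p = 0.00146). Every induced library lay below every uninduced one for both genes. RRM1 (-1.21), CDC6 (-1.18), TYMS (-1.06), E2F2 (-0.82), MCM7 (-0.52), CDC25A (-0.48), MCM6 (-0.47) and MCM3 (-0.42) fell too. MAD2L1 (-0.96) and BUB1B (-0.70) were, with MKI67, the G2/M genes that fell. MCM2 was at 5.78, 5.91 and 5.96 against 6.16, 6.18 and 6.28, a difference of -0.32 ± 0.14 (SE, adjusted p = 0.103), without overlap.

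The G2/M genes of the uninduced group were scattered. TOP2A was at 5.91, 6.01 and 6.47 with dox and at 5.53, 6.66 and 7.24 without, a difference of -0.35 ± 0.35 (SE, adjusted p = 0.493), and CCNB1 was at 4.40, 4.66 and 4.95 against 4.62, 4.76 and 5.99, a difference of -0.45 ± 0.30 (SE, adjusted p = 0.28). Library 24 was the highest of the uninduced libraries for both genes, and the groups overlapped. The 15 calls became 9 without library 24 or 25, 23 without library 22, and 8 with only the compared groups in the model.

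That uninduced group also differed from parental H524. Lower expression was called for 16 genes, all from G2/M, and higher expression for CDC6 alone, against 15.9% and 10.7% of all genes. UBE2C was at 3.93, 5.21 and 5.10 against 7.12, 7.85 and 6.17, a difference of -2.30 ± 0.42 (SE, adjusted p = 0.00187). CENPE, a kinetochore motor, was at 1.25, 1.46 and 2.52 against 3.24, 4.03 and 3.78, a difference of -1.94 ± 0.30 (SE, adjusted p = 0.000607). CDC20 was at 5.19, 5.62 and 6.44 against 7.20, 8.03 and 6.76, a difference of -1.58 ± 0.36 (SE, adjusted p = 0.00659). No library overlapped for these genes. CDC6 was at 8.37, 7.54 and 8.57 against 6.45, 6.46 and 7.24, a difference of 1.44 ± 0.30 (SE, adjusted p = 0.00374), again without overlap. With only these groups in the model the count was 0. The dox response of H524 NOTCH1 cells and this comparison share the uninduced libraries.

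REST induction in H524 was followed by no called change. Of the 41 genes 0 passed the test (limma) and 5 were lower at an unadjusted p under 0.05, against 2.83% of all genes called, although REST itself reached 6.87 to 10.72. MKI67 was at 6.55, 7.04 and 6.76 with dox and 7.55, 7.21 and 7.20 without, a difference of -0.53 ± 0.23 (SE, adjusted p = 0.255). The groups did not overlap, but the difference did not pass the test. E2F1 was at 13.04, 13.26 and 12.98 against 13.42, 13.57 and 13.47, a difference of -0.39 ± 0.17 (SE, adjusted p = 0.247). CCNB1 was at 5.93, 6.46 and 6.06 against 6.52, 6.13 and 6.09, a difference of -0.10 ± 0.30 (SE, adjusted p = 0.908). With only both REST groups in the model, AURKB (-0.90) and MCM4 (-0.56) were called. Uninduced REST cells and parental cells differed in 0 of 41 genes (limma, 0 also at an unadjusted p under 0.05), against 0.300% of all genes.

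The 2 induced groups of H524 were then set side by side. NOTCH1 cells were lower in 32 genes and higher in 0, against 22.9% and 19.9% of all genes, and 22 of the 24 G2/M genes were among them. CENPE was at 1.20, 1.05 and 1.58 in NOTCH1 cells and 3.44, 3.75 and 3.81 in REST cells, a difference of -2.39 ± 0.30 (SE, adjusted p = 2.57e-05). CENPF, a kinetochore protein, was at 6.26, 6.09 and 6.69 against 8.53, 8.79 and 8.71, a difference of -2.33 ± 0.29 (SE, adjusted p = 2.75e-05). UBE2C was at 3.92, 4.25 and 4.39 against 6.64, 6.32 and 6.07, a difference of -2.15 ± 0.42 (SE, adjusted p = 0.001). The groups were apart by more than 1 log2 unit for all 3 genes. When each line's own uninduced cells were taken into account, by a test of the difference between both dox responses, 7 genes were called and all belong to G1/S (against 7.36% of genes lower and 11.7% higher). These were CCNE2 (-1.82 ± 0.57, adjusted p = 0.0386), CDC6 (-1.73 ± 0.42, adjusted p = 0.0104), RRM2 (-1.42 ± 0.36, adjusted p = 0.014), E2F2, RRM1, TYMS and PCNA. Of the 24 G2/M genes 0 were called in that test, and 1 had an unadjusted p under 0.05.

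**Figure D3:**
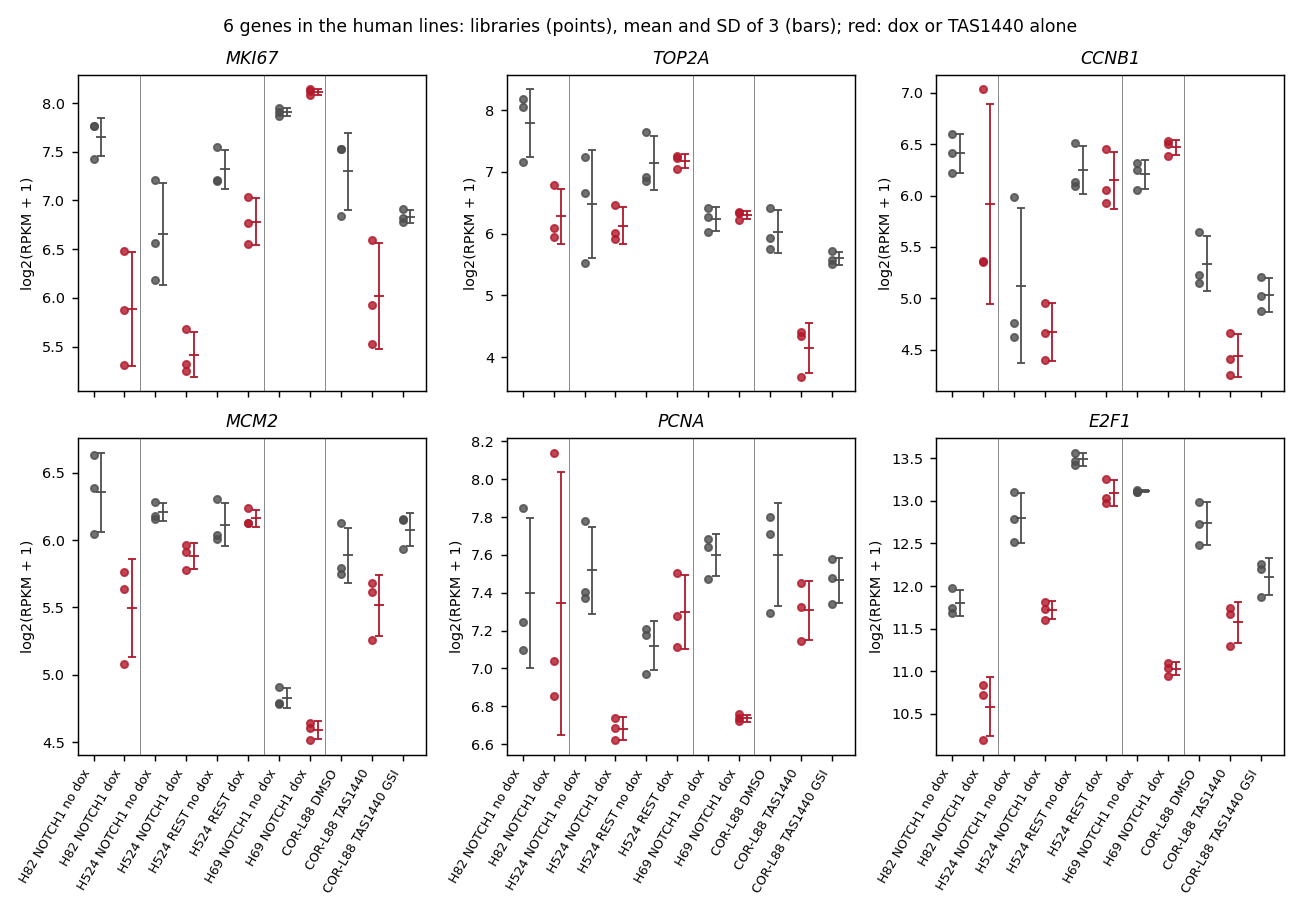
Log2(RPKM + 1) of 6 genes in the human lines, with libraries as points and the mean and SD of 3 beside them, in red for dox or TAS1440 alone. MKI67 was lower in red than in the matching grey group in H82, H524 NOTCH1 and COR-L88 but not in H69, whereas E2F1 was lower in red in all 4 lines.

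In H69 most G2/M genes rose with dox and most G1/S genes fell. With dox 22 genes rose and 13 fell, against 44.1% and 38.3% of 13580 genes. Of the 24 G2/M genes 19 rose and 1 (CDC25C) fell, and of the 17 G1/S genes 12 fell and 3 (MYBL2, MCM6 and RRM2) rose. The median difference was 0.46 over the G2/M genes and -0.66 over the G1/S genes, beside 0.083 over all genes. The share of all genes called was high in this line, where the libraries of a group lay close together. The median SD over genes was 0.0681 in the induced group, against 0.256 in H82.

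CDC20 was at 7.42, 7.44 and 7.45 with dox and 5.45, 4.75 and 5.14 without, a difference of 2.33 ± 0.15 (SE, adjusted p = 8.54e-07). PLK1 was at 7.13, 7.11 and 7.11 against 5.85, 5.67 and 6.05, a difference of 1.26 ± 0.09 (SE, adjusted p = 1.75e-06). KIF23, a kinesin of cytokinesis, was at 3.99, 4.01 and 4.10 against 3.11, 2.44 and 2.84, a difference of 1.23 ± 0.15 (SE, adjusted p = 6.55e-05). All induced libraries stood above all uninduced ones. Rises were also called for BUB1 (1.21), AURKA (1.15), CENPE (1.05), UBE2C (0.98), CCNA2 (0.81), AURKB (0.81), CENPA (0.72), KIF11 (0.68), FOXM1 (0.50), BUB1B (0.43), KIF20A (0.35), CCNB2 (0.35), TPX2 (0.32) and CENPF (0.23).

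The falls were led by E2F1, at 11.10, 11.04 and 10.94 with dox and 13.10, 13.13 and 13.11 without, a difference of -2.09 ± 0.05 (SE, adjusted p = 3.02e-09). CCNE2 was at 3.89, 4.01 and 4.00 against 5.67, 5.91 and 6.06, a difference of -1.91 ± 0.09 (SE, adjusted p = 1.63e-07). MCM3, a helicase subunit, was at 5.92, 5.96 and 5.98 against 7.15, 7.26 and 7.20, a difference of -1.25 ± 0.05 (SE, adjusted p = 7.3e-08). The groups lay far apart for these 3 genes. E2F2 (-1.04), PCNA (-0.86), RRM1 (-0.82), MCM7 (-0.73), MCM4 (-0.71), MCM5 (-0.66), TYMS (-0.33), MCM2 (-0.24) and CDC25A (-0.19) fell as well. CCNE1, CDC6, BIRC5, TOP2A, MAD2L1 and CDK1 did not pass the test.

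The general proliferation markers showed small differences in H69. MKI67 was at 8.12, 8.14 and 8.08 against 7.95, 7.86 and 7.91, a difference of 0.21 ± 0.06 (SE, adjusted p = 0.0134), and under quantile normalization its difference was -0.026 and no longer called. TOP2A was at 6.23, 6.33 and 6.35 against 6.41, 6.02 and 6.28, a difference of 0.07 ± 0.10 (SE, adjusted p = 0.54), and CCNB1 was at 6.39, 6.50 and 6.53 against 6.25, 6.05 and 6.32, a difference of 0.27 ± 0.08 (SE, adjusted p = 0.0109). Uninduced and parental H69 cells differed in 4 genes, all higher, against 13.8% of genes higher and 13.6% lower. Neither share of members was above that of all genes. MKI67 was at 7.95, 7.86 and 7.91 against 7.39, 7.60 and 7.47, a difference of 0.42 ± 0.06 (SE, adjusted p = 0.00166). CENPF was at 8.23, 8.21 and 8.36 against 7.99, 8.05 and 8.01, a difference of 0.25 ± 0.06 (SE, adjusted p = 0.0153), and BIRC5 at 4.40, 4.27 and 4.45 against 4.16, 4.12 and 4.08, a difference of 0.25 ± 0.07 (SE, adjusted p = 0.0247). CDC25A was the other gene. These differences were small but the libraries did not overlap, and the count was 1 without library 48, 2 without library 46, 47 or 51, and 13 without library 50.

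**Figure D4:**
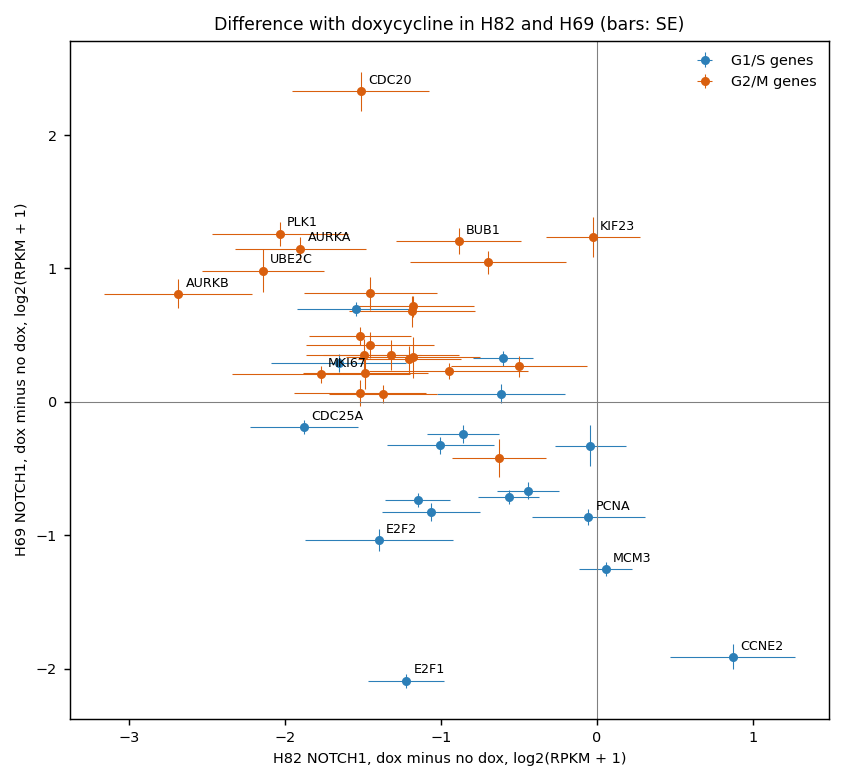
Difference with dox in H82 (x) and in H69 (y) on the log2(RPKM + 1) scale for each gene, with SE bars, G1/S genes in blue and G2/M genes in orange. G2/M genes such as PLK1 (-2.03 and 1.26) and CDC20 (-1.51 and 2.33) lie at the upper left, and E2F1 (-1.22 and -2.09) lies at the lower left.

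The dox responses of the 3 NOTCH1 lines were tested against each other in 1 model of all human libraries. Between H69 and H82 the response differed for 30 genes, 26 with a higher and 4 with a lower response in H69, against 31.5% and 29.1% of all genes. Of the 24 G2/M genes 21 had the higher response. CDC20 (3.84 ± 0.51, adjusted p = 1.69e-08), AURKB (3.49 ± 0.51, adjusted p = 9.56e-08) and PLK1 (3.29 ± 0.50, adjusted p = 2.47e-07) differed most. The lower responses belonged to CCNE2 (-2.78 ± 0.49, adjusted p = 4.8e-06), MCM3 (-1.31 ± 0.18, adjusted p = 2.46e-08), E2F1 (-0.87 ± 0.26, adjusted p = 0.00396) and PCNA. Between H69 and H524, 16 genes had a higher and 3 a lower response in H69, against 27.9% and 26.9% of genes, led by CDC20 (3.06 ± 0.51, adjusted p = 2.43e-06), RRM2 (1.79 ± 0.48, adjusted p = 0.00141) and AURKA (1.79 ± 0.43, adjusted p = 0.000481), with E2F1 (-1.00 ± 0.26, adjusted p = 0.00116), MCM3 (-0.83 ± 0.18, adjusted p = 0.000115) and MCM4 (-0.68 ± 0.22, adjusted p = 0.00782) lower. Between H524 and H82, 9 genes had a higher and 2 a lower response in H524, against 16.8% and 15.5% of genes. The share of members was near that of all genes for a higher response and below it for a lower response. AURKB (1.98 ± 0.51, adjusted p = 0.00189), PLK1 (1.76 ± 0.50, adjusted p = 0.00515) and UBE2C (1.58 ± 0.51, adjusted p = 0.0134) were the highest, and CCNE2 (-2.33 ± 0.49, adjusted p = 0.000218) and MCM3 (-0.48 ± 0.18, adjusted p = 0.0337) were lower. Under quantile normalization that split of 9 and 2 became 6 and 3, and with only the compared groups in the model the count was 6. These 3 tests share libraries pairwise. The induced NOTCH1 level was not matched between lines, at 7.93 to 8.07 in H69 and lower in intact H82 cells. By the study's legends, H69 cells were also held in dox longer than H82 and H524 cells. The part of level and time in these differences was not tested.

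In COR-L88, TAS1440 was followed by a fall of nearly the whole G2/M set. Of the 41 genes 27 fell and 1 rose, against 26.6% and 31.1% of 13134 genes, with a median of -0.90. Lower expression was called for 22 of 24 G2/M genes and 5 of 17 G1/S genes. MAD2L1, a subunit of the mitotic checkpoint complex, was at 4.59, 4.40 and 4.97 with TAS1440 and 7.03, 6.13 and 6.54 with DMSO, a difference of -1.91 ± 0.23 (SE, adjusted p = 1.01e-05). TOP2A was at 3.68, 4.35 and 4.40 against 6.42, 5.93 and 5.76, a difference of -1.89 ± 0.22 (SE, adjusted p = 8.21e-06). KIF11, the kinesin that separates spindle poles, was at 5.24, 5.69 and 5.80 against 7.59, 7.21 and 6.96, a difference of -1.68 ± 0.22 (SE, adjusted p = 2.16e-05). Each treated library lay more than 1 log2 unit below each DMSO library for these genes.

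MKI67 was at 5.52, 6.60 and 5.93 against 7.52, 7.53 and 6.84, a difference of -1.28 ± 0.27 (SE, adjusted p = 0.001), and CCNB1 was at 4.26, 4.40 and 4.66 against 5.64, 5.15 and 5.23, a difference of -0.90 ± 0.22 (SE, adjusted p = 0.0038). Library 13 was the lowest for both genes and the groups did not overlap. CDC20 (-0.55) and KIF20A (-0.29), a kinesin of the central spindle, were the G2/M genes that did not pass. The G1/S genes that fell were RRM2 (-1.42), E2F1 (-1.16), E2F2 (-1.13), MCM7 (-0.89) and CDC25A (-0.62). E2F1 was at 11.30, 11.68 and 11.74 against 12.48, 12.73 and 12.99, a difference of -1.16 ± 0.15 (SE, adjusted p = 2.38e-05). MCM2 was at 5.26, 5.61 and 5.68 against 5.74, 5.79 and 6.12, a difference of -0.37 ± 0.16 (SE, adjusted p = 0.0611), and PCNA was at 7.33, 7.14 and 7.45 against 7.80, 7.29 and 7.71, a difference of -0.29 ± 0.15 (SE, adjusted p = 0.112). The groups were separate for E2F1 and MCM2 and overlapped for PCNA. CCNE1 rose, at 4.54, 4.41 and 4.48 against 2.66, 2.68 and 2.83, a difference of 1.75 ± 0.18 (SE, adjusted p = 3.15e-06), and no library of the groups overlapped. Among the other G2/M genes that fell were AURKB (-1.64), CENPF (-1.48), BIRC5 (-1.48), UBE2C (-1.43), FOXM1 (-1.25), CENPA (-1.13), CDK1 (-1.02) and PLK1 (-0.96). Leaving out any library gave 28 or 29 calls.

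With the GSI added to TAS1440, 9 genes were lower and 2 higher than with DMSO, against 11.4% and 13.1% of all genes. CCNE1 was at 3.76, 3.32 and 3.27, a difference of 0.73 ± 0.18 (SE, adjusted p = 0.0108), and MCM5 at 5.52, 5.83 and 5.78 against 4.93, 5.19 and 5.59, a difference of 0.47 ± 0.16 (SE, adjusted p = 0.0455). RRM2 was at 5.14, 5.19 and 5.41 against 6.75, 5.82 and 6.33, a difference of -1.05 ± 0.27 (SE, adjusted p = 0.0112). MAD2L1 was at 5.68, 5.70 and 5.97, a difference of -0.78 ± 0.23 (SE, adjusted p = 0.0232). MCM5 overlapped between groups and the other 3 genes did not. E2F2 (-0.77 ± 0.18, adjusted p = 0.00553), AURKB, FOXM1, AURKA, CDK1, E2F1 and CDC25A were also lower, and the count ran from 5 without library 10 to 12 without library 12, with 6 without library 16 or 17 and 7 without library 18.

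Set directly against TAS1440 plus GSI, TAS1440 alone had 22 genes lower and 2 higher, against 19.0% and 27.7% of all genes, and 18 of the 22 belong to G2/M. TOP2A was at 3.68, 4.35 and 4.40 against 5.57, 5.51 and 5.72, a difference of -1.45 ± 0.22 (SE, adjusted p = 0.000153). CENPF was at 6.82, 7.86 and 7.43 against 8.71, 8.72 and 8.75, a difference of -1.36 ± 0.26 (SE, adjusted p = 0.000878). KIF11 was at 5.24, 5.69 and 5.80 against 6.50, 6.70 and 6.97, a difference of -1.15 ± 0.22 (SE, adjusted p = 0.000823). Library 13 was the lowest for each of these genes and the groups did not overlap. MKI67 (-0.82 ± 0.27, adjusted p = 0.0221), CCNB1 (-0.59 ± 0.22, adjusted p = 0.044), MCM2 (-0.56 ± 0.16, adjusted p = 0.0107) and E2F1 (-0.54 ± 0.15, adjusted p = 0.0113) were lower too. CCNE1 (1.03 ± 0.18, adjusted p = 0.000543) and CCNE2 (0.54 ± 0.20, adjusted p = 0.0357) were higher, with CCNE2 at 6.15, 5.89 and 6.12 against 5.64, 5.41 and 5.47. Without library 13 the count was 13. The 3 comparisons of this line share the DMSO, TAS1440 or GSI libraries pairwise.

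In the libraries labelled STING KO, TAS1440 left 27 genes lower and 1 higher than with DMSO, against 20.9% and 22.4% of all genes. MAD2L1 was at 5.07, 4.66 and 5.12 against 6.51, 5.94 and 6.44, a difference of -1.35 ± 0.23 (SE, adjusted p = 0.00033). RRM2 was at 4.93, 5.00 and 5.01 against 6.75, 5.57 and 6.66, a difference of -1.34 ± 0.27 (SE, adjusted p = 0.00122). AURKA was at 2.66, 2.93 and 2.90 against 4.40, 3.63 and 4.22, a difference of -1.25 ± 0.17 (SE, adjusted p = 4.17e-05). DMSO library 41 was the lowest of its group for all 3 genes, and no libraries overlapped. CCNE1 rose again, at 3.23, 3.93 and 3.39 against 2.68, 2.39 and 2.92, a difference of 0.85 ± 0.18 (SE, adjusted p = 0.00206).

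The test of the difference between both TAS1440 responses called 0 of 41 genes (limma), with 4 at an unadjusted p under 0.05, against 7.93% of all genes. With DMSO, 0 of 41 genes differed between STING KO and intact cells (limma, 0 also at an unadjusted p under 0.05), against 5.41% of all genes, and 1 gene was called without library 41. With TAS1440, AURKB, E2F1, MCM7 and MCM4 were higher in STING KO cells and CCNE1 and CCNE2 lower, against 8.34% and 18.8% of all genes. The share of members called was near that of all genes for higher expression and below it for lower expression. AURKB was at 10.26, 10.14 and 10.59 against 9.28, 9.53 and 9.67, a difference of 0.84 ± 0.17 (SE, adjusted p = 0.00295). E2F1 was at 12.31, 12.06 and 12.31, a difference of 0.66 ± 0.15 (SE, adjusted p = 0.00742), and MCM7 was at 6.74, 6.41 and 6.72 against 5.96, 6.12 and 6.21, a difference of 0.53 ± 0.16 (SE, adjusted p = 0.0274). The differences of CCNE1 and CCNE2 were -0.96 and -0.63, and the groups of all 5 named genes were separate. The split of 4 higher and 2 lower became 9 and 2 under quantile normalization and 10 and 1 with median-centred libraries, and the 6 calls ranged from 3 without library 13, 43 or 45 to 8 without library 44.

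In KP1, 4 of the 41 genes changed with TAS1440. E2f2, Ccne2 and Cdc25a fell and Mcm4 rose, against 18.5% and 18.2% of 8260 genes. Members were thus called less often than all genes in both directions. Of the 24 G2/M genes 0 were called (limma, 0 also at an unadjusted p under 0.05). With only the compared groups in the model, 2 of them were called. E2f2 was at 0.29, 0.51 and 0.90 with TAS1440 and 2.38, 2.37 and 2.75 with DMSO, a difference of -1.94 ± 0.24 (SE, adjusted p = 0.000237). Ccne2 was at 3.59, 3.96 and 4.76 against 5.10, 5.05 and 5.29, a difference of -1.04 ± 0.34 (SE, adjusted p = 0.0389). Cdc25a was at 1.33, 1.82 and 1.40 against 2.46, 2.47 and 2.72, a difference of -1.03 ± 0.18 (SE, adjusted p = 0.00158). All treated libraries were lower than all DMSO libraries for these G1/S genes. Mcm4 was at 4.59, 4.16 and 4.94 against 3.88, 3.95 and 3.99, a difference of 0.62 ± 0.21 (SE, adjusted p = 0.0435), without overlap. There were 2 calls, E2f2 and Cdc25a, without library 1, 2 or 3. Quantile normalization gave 0 higher and 6 lower, median-centred libraries 0 higher and 3 lower, and a model of only the compared groups 0 higher and 5 lower.

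Mki67 in KP1 was at 3.11, 3.68 and 3.59 with TAS1440 against 4.27, 4.15 and 4.88, a difference of -0.97 ± 0.53 (SE, adjusted p = 0.181). The groups did not overlap, yet the difference did not pass the test. Library 9 of the GSI group (2.70) lay far below libraries 7 and 8 (4.88 and 4.84), and with only the DMSO and TAS1440 groups in the model Mki67 (-0.97, adjusted p = 0.0265) and Cenpf (-0.63, adjusted p = 0.0332) were called lower. Top2a was at 3.69, 4.54 and 4.37 against 4.03, 3.99 and 4.83, a difference of -0.08 ± 0.46 (SE, adjusted p = 0.906). Ccnb1 was at 3.97, 4.41 and 4.47 against 3.84, 3.86 and 4.64, a difference of 0.17 ± 0.46 (SE, adjusted p = 0.801). Libraries 3 and 4 were the extremes of their groups for both genes, and the groups overlapped. Mcm2 (-0.51 ± 0.21, adjusted p = 0.0916), Pcna (-0.15 ± 0.17, adjusted p = 0.548) and E2f1 (-0.52 ± 0.22, adjusted p = 0.0933) did not pass.

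With TAS1440 plus GSI 0 of 41 genes differed from DMSO in KP1 (limma), with 1 at an unadjusted p under 0.05, against 1.97% of all genes. Against the GSI group, TAS1440 alone had E2f2, Ccne2, Cdc25a and Cdc6 lower and Mcm4 higher, against 16.3% and 15.7% of all genes. Both shares of members were below those of all genes. E2f2 was at 2.20, 2.55 and 1.68 in the GSI group, a difference of -1.58 ± 0.24 (SE, adjusted p = 0.000965). Ccne2 was at 4.69, 5.18 and 5.78, a difference of -1.12 ± 0.34 (SE, adjusted p = 0.033), and Cdc25a at 2.30, 2.41 and 2.00, a difference of -0.72 ± 0.18 (SE, adjusted p = 0.0126). Mcm4 was at 3.81, 4.06 and 3.77, a difference of 0.68 ± 0.21 (SE, adjusted p = 0.0339). Only Ccne2 overlapped between both groups among these 4 genes. The count was 2 without library 8 and 3, all lower, with only the compared groups in the model, and the split became 0 higher and 6 lower under quantile normalization and 0 and 4 with median-centred libraries.

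**Figure D5:**
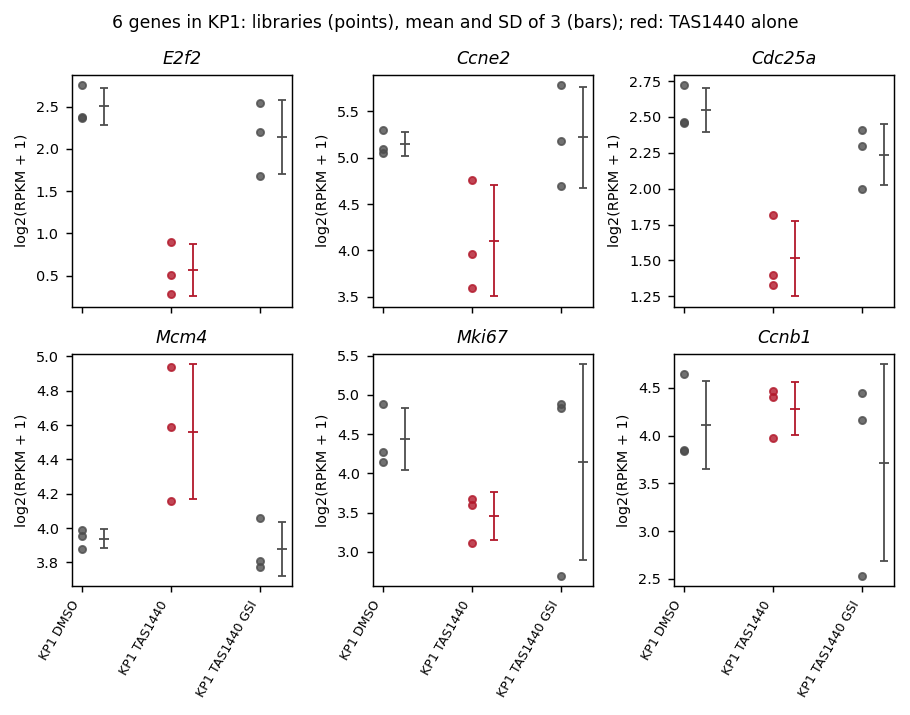
Log2(RPKM + 1) of 6 genes in KP1 libraries (points) with the mean and SD of 3, for DMSO, TAS1440 (red) and TAS1440 plus GSI. E2f2, Ccne2 and Cdc25a were lowest with TAS1440 alone, and Mki67 and Ccnb1 show library 9 of the GSI group far below the others.

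Further cell cycle genes, 32 of G1/S and 35 of G2/M, were taken from a list outside the 41, and their counts are set against the shares of all genes called in the same comparison. In H82 with NOTCH1 induction 13 of the further G1/S genes fell and 2 rose, and 18 of the further G2/M genes fell and 0 rose, against 24.9% of all genes lower and 25.4% higher. UNG, a uracil glycosylase, was at 4.31 to 4.45 with dox against 5.86 to 6.55 without (difference -1.76), and KIF15, a spindle kinesin, was at 3.97 to 4.46 against 5.24 to 6.31 (-1.63). In H524 18 G1/S genes and 2 G2/M genes fell, against 14.4% of all genes, with DSCC1, which helps load the clamp, at 1.90 to 2.07 against 3.33 to 3.90 (-1.61). In H69 the further G2/M genes went both ways, with 17 higher, such as ANLN (difference 1.49), and 12 lower, such as CBX5 (-1.37) and ECT2 (-1.02), and of the further G1/S genes 6 rose and 16 fell. The shares of all genes in H69 were 44.1% higher and 38.3% lower, which the G2/M counts lie near. In COR-L88 with TAS1440, 31 of 35 further G2/M genes fell, 1 rose, and 15 of 32 G1/S genes fell, against 26.6% of all genes, with HMGB2, a chromatin protein, at 9.61 to 9.84 against 11.67 to 12.15 (-2.10). In KP1, 29 of the further G1/S genes were tested, of which 7 fell and 1 rose, and of 35 further G2/M genes 2 fell and 2 rose, against 18.5% of all genes lower and 18.2% higher.

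Regulators that brake or license the cycle were measured beside these genes, and those named here were chosen after their values were seen. CDKN1A, which encodes the CDK inhibitor p21, was at 3.40 to 3.88 with NOTCH1 induction in H82 against 0.13 to 0.31 without (difference 3.35), and at 5.55 to 6.38 with TAS1440 in COR-L88 against 2.29 to 3.34 with DMSO (3.25). With TAS1440 plus GSI, where 5 of the 24 G2/M genes were lower than with DMSO, CDKN1A was at 5.90, 5.90 and 5.46, within the range of TAS1440 alone but for the lowest library. In H69, CDKN1A was lower with dox, at 4.23 to 4.36 against 5.75 to 6.74 (-2.09), while CDKN2B was higher (2.53). KP1 cells had higher Ccnd1 with TAS1440, at 3.85 to 5.17 against 0.01 to 0.21 (4.31). Unlike CDKN1A in COR-L88, Cdkn1a in KP1 was not higher with TAS1440. It was at 1.35 to 1.85 with TAS1440, 1.70 to 2.07 with DMSO and 2.70 to 3.64 with TAS1440 plus GSI. SCLC lineage markers moved in the same comparisons, for example SYP at 0.78 to 1.26 with dox against 6.90 to 7.01 in H82, 5.23 to 5.52 against 6.55 to 6.85 in H524, and 1.96 to 2.16 against 5.57 to 5.78 in H69. The part of either set of genes in the values above was not tested.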

How the data were processed

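RNA sequencing data of 69 libraries were taken as deposited. The deposited values are log2(RPKM + 1). The authors trimmed reads with cutadapt, aligned with STAR (hg19 for the human lines, with mm10 also named), quantified with RSEM and scaled with edgeR, whose versions are not given in the sources used here. No counts were used, so limma voom, the test of the study, was replaced by limma (3.58.1 in R 4.3.3) with a trend on the deposited log2 values. Genes at 1 or more in at least 3 libraries of a line were tested. Each line was fitted with its group means, comparisons between lines with all human libraries, tests were two-sided, and Benjamini-Hochberg adjustment covered every gene in the fit, with calls at 0.05. The fit was also run on simulated data, drawn as independent normal values with the same spread in every group. Such data hold no library that shifts many genes together, so that run checks the code only. The depth of a library was estimated only relative to the others, from the lowest nonzero values of low genes, and absolute depth is unknown. Correlation of those values with gene span (Spearman -0.867 in KP1, -0.317 in the human lines) and exon length (-0.662 and -0.435) differed between tables, so levels were not compared between genes or tables. Library values are given for MKI67, TOP2A, CCNB1, MCM2, PCNA and E2F1 and for up to 3 called genes per direction with the largest change. The members and lists were chosen with earlier results of these data known. As alternatives, the filter was dropped, the pseudocount set to 0.1, and libraries were quantile normalized or centred on their medians. The model was also restricted to the groups of each comparison, and each library was left out in turn.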

Additional observations from a re-analysis of the deposited data

Results flagged for a closer look

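Tests of a difference between dox responses that called at least 1 of the 41 genes are given here with the called gene of the largest difference. In H82 the response of cells labelled STING KO differed from that of intact cells for 1 gene, MCM2, by 1.09 ± 0.33 (SE, limma adjusted p = 0.0431). That call was lost under quantile normalization and with only the compared groups in the model, where CDC25A (limma adjusted p = 0.0263) was called in its place. In H524 the response to NOTCH1 differed from that to REST for 7 genes, with CCNE2 at -1.82 ± 0.57 (SE, limma adjusted p = 0.0386). Between H524 and H82, 11 genes differed, with CCNE2 at -2.33 ± 0.49 (SE, limma adjusted p = 0.000218). Between H69 and H82, 30 genes differed, with CDC20 at 3.84 ± 0.51 (SE, limma adjusted p = 1.69e-08). Between H69 and H524, 19 genes differed, with CDC20 at 3.06 ± 0.51 (SE, limma adjusted p = 2.43e-06). In the same order, the shares of all genes called in either direction were 9.26%, 19.1%, 32.4%, 60.6% and 54.8%. Only between H69 and H82 was the share of members above that of all genes. Groups of 3 are too small for a test of single outlying libraries.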

How the results depend on the processing

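No paired analysis was possible because the compared groups share no replicate numbers. The called genes and the 6 genes followed throughout gave 505 differences and 4949 repeats under the alternatives. Of these repeats 4460 kept their call or lack of one, 442 lost the call and 46 gained one. The remaining 1 reversed, MKI67 in H69 with dox (-0.026 under quantile normalization). Direction was compared only for genes called in the main fit, so uncalled genes may have changed sign. Of 155 repeated counts with all libraries kept, 139 stayed within 1.5 times the reported count, among them all without a filter and with a pseudocount of 0.1. Under quantile normalization the count became 1 for REST KO against intact H82 cells with dox, 0 for the same without dox, 0 for the STING KO difference in the H82 dox response, 11 for STING KO against intact COR-L88 cells with TAS1440, and 2 for the STING KO difference in the TAS1440 response. Median-centred libraries also gave 11 for STING KO against intact COR-L88 cells with TAS1440. With only the compared groups, which leaves fewer samples to estimate the spread, the count in H82 became 1 for STING KO against intact with dox, 20 for the same without dox, 5 for REST KO against intact without dox, and 0 for uninduced against parental cells. In the other lines it became 8 for H524 NOTCH1 with dox, 2 for H524 REST with dox, 0 for uninduced H524 NOTCH1 against parental cells, 2 for uninduced H69 against parental cells, 3 for KP1 TAS1440 against TAS1440 plus GSI, and 6 for H524 against H82. The cause of these moves was not tested beyond that. Quantile normalization and median-centring moved the median difference over all genes in COR-L88 with TAS1440 from 0.008 to -0.14 and -0.13, and in H524 NOTCH1 with dox from -0.018 to -0.12 and -0.13. Leaving out each library in turn gave these ranges of counts. H82 NOTCH1 dox vs no dox 23 to 29, H82 REST KO, NOTCH1 dox vs no dox 13 to 30, H82 STING KO, NOTCH1 dox vs no dox 6 to 22, H82 NOTCH1 dox, REST KO vs intact 0 to 1. H82 NOTCH1 dox, STING KO vs intact 2 to 11, H82 NOTCH1 no dox, REST KO vs intact 0 to 0, H82 NOTCH1 no dox, STING KO vs intact 6 to 9, H82 NOTCH1 no dox vs parental 0 to 5. H524 NOTCH1 dox vs no dox 9 to 23, H524 REST dox vs no dox 0 to 0, H524 dox, NOTCH1 vs REST 23 to 28, H524 NOTCH1 no dox vs parental 13 to 25. H524 REST no dox vs parental 0 to 0, H69 NOTCH1 dox vs no dox 33 to 38, H69 NOTCH1 no dox vs parental 1 to 13, COR-L88 TAS1440 vs DMSO 28 to 29. COR-L88 TAS1440 GSI vs DMSO 5 to 12, COR-L88 TAS1440 vs TAS1440 GSI 13 to 24, COR-L88 STING KO, TAS1440 vs DMSO 21 to 28, COR-L88 TAS1440, STING KO vs intact 3 to 8. COR-L88 DMSO, STING KO vs intact 0 to 1, KP1 TAS1440 vs DMSO 2 to 4, KP1 TAS1440 GSI vs DMSO 0 to 0, KP1 TAS1440 vs TAS1440 GSI 2 to 6. Absolute depth is unknown, so no counting error can be attached to a value.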
